A study of Mus musculus with 6 samples.

Results

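YKL-05-093, a small molecule that inhibits salt-inducible kinases (SIKs) and, in vitro, other kinases, was compared with vehicle in Ocy454 cells, a mouse osteocytic line. The comparison used the 4 libraries labelled with these treatments, out of 6 libraries in the series, and covered every gene above a filter on low values, which left 14255 of the 39179 genes listed. The cells were grown to confluence at 33 °C, held at 37 °C for 14 days, and exposed for 4 h to 0.5 µM YKL-05-093 or to vehicle, which the sample labels give as PBS containing 25 mM HCl. The study's methods describe that solvent for mice and DMSO stocks for work in culture, so the solvent in these wells is uncertain. The remaining libraries came from the same cell line given 1 nM PTH (parathyroid hormone), and they are used only to ask where the inhibitor response differed from the hormone response. Each treatment had 2 libraries, all from 1 cell line, and no source used here says whether they were separate cultures, so that the p-values measure only the spread between libraries.

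SIKs are serine/threonine kinases of the AMPK family that are switched on by the kinase LKB1 and switched off when protein kinase A phosphorylates them downstream of cAMP. Active SIKs phosphorylate the CRTC coactivators of CREB and the class IIa histone deacetylases and so hold both in the cytoplasm. Once SIKs are inhibited, CRTCs enter the nucleus and raise CREB target genes, while the deacetylases enter the nucleus and repress genes driven by MEF2 factors. In osteocytes this route links the PTH receptor to sclerostin, the Wnt antagonist encoded by Sost, and to RANKL, the osteoclast-forming ligand encoded by Tnfsf11.

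The authors deposited RPKM, which is reads scaled to the length of the gene and to the total of the library. The library totals behind the values ranged from 17505798 to 27983585 reads. The vehicle libraries differed from each other more than the others did: the median absolute log2 difference between the 2 libraries of a group was 0.33 for vehicle, 0.10 for YKL-05-093 and 0.11 for PTH. The difference between the vehicle libraries followed gene length. Among the tested genes in the lowest quartile of length, up to 1448 bases, vehicle library 1 was lower than library 2 by a median of 0.34 on the log2 scale (a difference of -0.34), and in the highest quartile, from 5188 bases, it was higher by 0.446. The corresponding differences were 0.075 and -0.032 for YKL-05-093. Osteoblast lineage genes were well expressed, with Col1a1 between 259 and 396 RPKM and Pth1r, the PTH receptor, between 52.1 and 70.7 RPKM in the 4 libraries. Late osteocyte genes were not: Dmp1 lay between 0.38 and 1.15 RPKM, Mepe at or below 0.14 RPKM, and Sost had 0 and 3 reads with vehicle and 1 and 2 reads with YKL-05-093. Because Sost sat at or under a floor of 3 reads in every library, no change of Sost was detectable. Among markers of other cell types, 2 of 10 on the osteoclast and macrophage list passed the filter: Ctsk, the protease cathepsin K, at 74.1 and 86 RPKM with vehicle and 92.4 and 91.5 RPKM with YKL-05-093, and Cd68 at 3.9 to 4.42 RPKM. They made up nearly all of that list's summed 78.2 and 90.3 RPKM with vehicle and 97 and 95.7 RPKM with the inhibitor. Of the other lists, 2 of 7 adipocyte, 2 of 7 chondrocyte, 1 of 6 endothelial and 0 of 6 muscle markers passed the filter. Their summed levels with vehicle were 3.40 and 3.98, 3.02 and 2.43, 1.31 and 0.82, and 0.58 and 0.60 RPKM. Ptprc, Csf1r, Itgam, Adipoq, Cdh5, Pecam1, Acan, Myod1 and Ckm were below 0.1 RPKM in all 4 libraries, whereas Tek, Des and Acta1 were above it.

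Against vehicle, 56 genes were higher and 39 lower with YKL-05-093, at a Benjamini-Hochberg adjusted p under 0.05 in limma and more than 2-fold change (0.666% of the genes tested, 0.393% higher and 0.274% lower). These genes are referred to as called. Among the called genes the largest rises were those of Rasl10b, Vdr and the NR4A nuclear receptors Nr4a1 and Nr4a2, and the largest falls those of Dusp6, Egr2, Spry4 and Egr1, which are known as read-outs of the ERK pathway. The median log2 fold change over all genes tested was -0.04. In all 95 called genes the vehicle and YKL-05-093 libraries did not overlap, which was also so for 15.7% of all tested genes in the upward and 22.1% in the downward direction. With 2 libraries against 2 an exact permutation test of a single gene cannot go below p = 0.333, so the calls depend on a spread that limma estimates from many genes at once. At an unadjusted p under 0.05, 556 genes were higher (3.9%) and 678 lower (4.76%). All 95 kept their direction in every alternative analysis run, but the number of calls moved: 11 genes were called without YKL-05-093 library 1, 35 without library 2, 42 without vehicle library 1 and 320 without vehicle library 2. Of the 56 higher and 39 lower genes, 20 and 6 were still called without vehicle library 1, 55 and 39 without vehicle library 2, 7 and 4 without YKL-05-093 library 1, and 20 and 12 without YKL-05-093 library 2. Dusp6, Kcne4, Nr4a1, Nr4a2, Pde4b, Rasl10b, Rgs2 and Vdr were called in each of these. Atoh8, Egr2 and Spry4 were lost only without vehicle library 1, and all other called genes were lost at least without YKL-05-093 library 1. After a trend with gene length was taken out of each library, an analysis added after the data were seen, 179 genes were called and 94 of the 95 were among them.

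**Figure D1:**
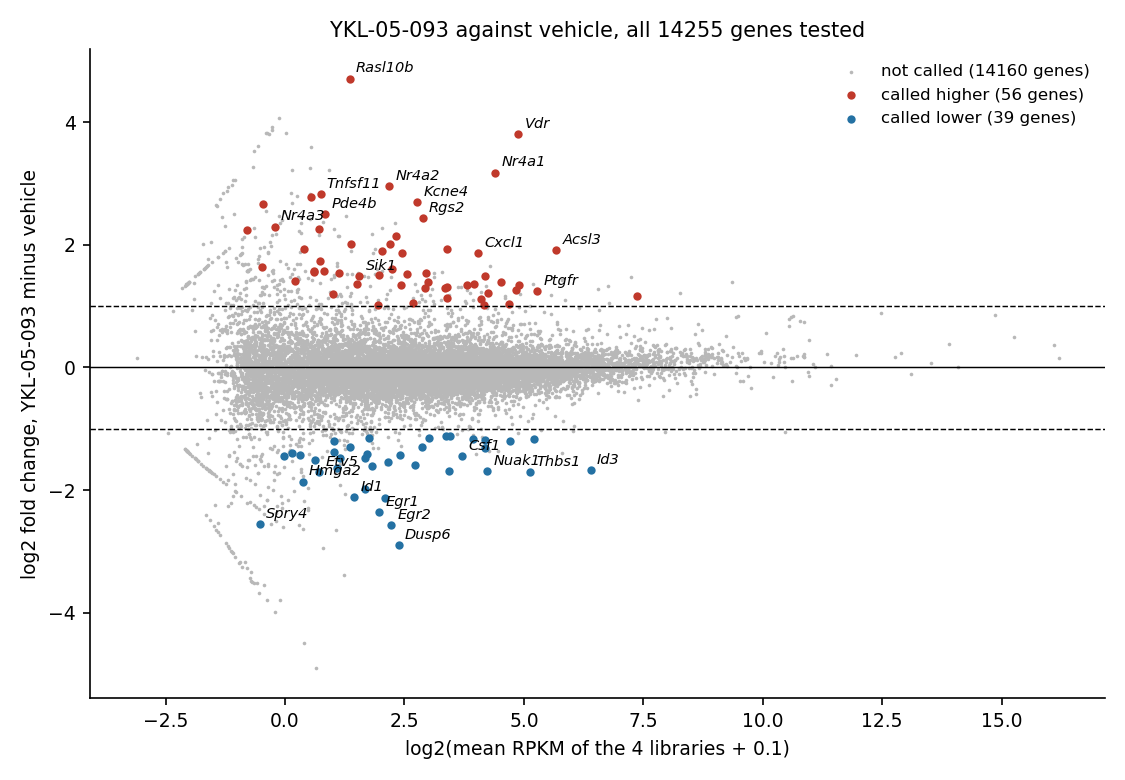
Each point is 1 of 14255 genes, with the log2 of its mean RPKM over the 4 libraries plus 0.1 on the x axis and its log2 fold change with YKL-05-093 on the y axis. The 56 genes called higher (red) and 39 called lower (blue) spread over a wide range of levels, and most genes lie between the dashed lines at a 2-fold change.

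The kinases that the compound is meant to inhibit were themselves transcribed in these cells. Sik1, whose transcription is a textbook response to cAMP, measured 1.68 and 1.22 RPKM with vehicle and 4.31 and 4.14 RPKM with YKL-05-093. It rose 2.82-fold (log2 fold change 1.49 ± 0.20, SE, n = 2 libraries per group, adjusted p = 0.032). Sik2 (1.94 and 1.26 RPKM with vehicle, 1.21 and 1.39 RPKM with the inhibitor) and Sik3 (5.22 and 4.05 against 5.55 and 6.13 RPKM) were not called, with log2 fold changes of -0.25 and 0.34. Sik1 was the sole call among 8 tested members of the list of SIKs and the LKB1 complex, and it lost its call when any of vehicle library 1 or either YKL-05-093 library was left out. Among the related AMPK, NUAK, MARK and BRSK kinases 1 of 10 was called: Nuak1 measured 33.7 and 23.7 RPKM with vehicle and 8.05 and 9.40 RPKM with YKL-05-093, and fell by 1.69 on the log2 scale (SE 0.21, adjusted p = 0.028). Nuak1, which LKB1 activates as it does the SIKs, lost its call without vehicle library 1 or either YKL-05-093 library.

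The substrates on which SIKs act were measured as mRNA only, which says nothing of their phosphorylation. Hdac4 appeared under 2 gene identifiers that may share reads, at 10.9 and 6.74 RPKM with vehicle and 18.3 and 18.5 RPKM with the inhibitor under the first. Its log2 fold changes of 1.09 and 1.18 were not called (adjusted p = 0.14 and 0.12). Hdac5 (20.9 and 18 against 23.6 and 23.8 RPKM), Mef2c (56.1 and 35.5 against 27.6 and 31.1 RPKM) and Crtc2 (5.59 and 4.70 against 4.07 and 3.91 RPKM) had log2 fold changes of 0.29, -0.61 and -0.35 and were not called either. None of 8 tested class IIa deacetylase and MEF2 genes and none of 11 tested CREB, CREM, CRTC and CITED genes was called by limma. At an unadjusted p under 0.05 these lists held 2 higher and 2 lower, and 1 higher and 1 lower. Over all genes tested the shares were 3.9% higher and 4.76% lower. With length trends taken out, 3 and 1 were called.

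Textbook targets of CREB leaned upward. Of 24 tested identifiers on this list, 10 were called higher, against 0.393% of all genes tested, and none lower. Pde4d enters this count under both of its identifiers, which may share reads. The median log2 fold change of the list was 1.01 against -0.04 for all genes. The list was drawn up with earlier results of these libraries known, and its count is a description. The count was 4 without YKL-05-093 library 1 and 15 without vehicle library 2. Nr4a1 and Nr4a2 rose most on the list. With Nr4a3 they form the NR4A family, which encodes orphan nuclear receptors made within hours of a cAMP or growth signal. Nr4a1 measured 4.45 and 3.72 RPKM with vehicle and 33.2 and 42.6 RPKM with YKL-05-093, a 9.04-fold rise (log2 fold change 3.18 ± 0.19, adjusted p = 0.0023). Nr4a2 went from 0.82 and 1.05 RPKM to 7.26 and 8.62 RPKM (2.96 ± 0.19, adjusted p = 0.0023). Nr4a3 went from 0.22 and 0.16 RPKM to 1.17 and 1.48 RPKM (2.30 ± 0.24, adjusted p = 0.017). Nr4a1 and Nr4a2 stayed called in 15 of 16 alternative analyses, and each fell short only without any filter on low values. Nr4a3 lost its call without vehicle library 1 or YKL-05-093 library 1.

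CREB binds the cAMP response element (CRE), TGACGTCA, or its core TGACG alone. All 3 NR4A genes carried 4 matches to the core, counted on both strands, in a window of 300 bases from 250 before to 50 after a RefSeq start on GRCm38.p6. Their sequences are shown because the family stood highest of all the lists. The bases before the start are given 5′ to 3′ on the strand of the gene, at chr15:101266596-101266845 (plus strand) for Nr4a1, chr2:57124004-57124253 (minus strand) for Nr4a2 and chr4:48045055-48045152 (plus strand) for Nr4a3. That of Nr4a3 stops where an exon begins in the GENCODE M21 annotation and so holds 3 of its 4 matches. Arl4d, which encodes an ARF-like small GTPase and was called higher with a log2 fold change of 1.30, is added for its full CRE, at chr11:101665291-101665540 on the plus strand. Capitals mark the core in the NR4A genes (TGACG, or CGTCA where it lies on the other strand) and the full CRE in Arl4d.
Nr4a1: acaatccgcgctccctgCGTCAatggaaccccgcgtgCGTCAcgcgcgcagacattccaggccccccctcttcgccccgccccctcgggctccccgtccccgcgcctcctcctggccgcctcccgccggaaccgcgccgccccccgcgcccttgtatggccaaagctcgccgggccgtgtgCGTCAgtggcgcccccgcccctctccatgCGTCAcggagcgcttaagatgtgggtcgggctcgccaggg
Nr4a2: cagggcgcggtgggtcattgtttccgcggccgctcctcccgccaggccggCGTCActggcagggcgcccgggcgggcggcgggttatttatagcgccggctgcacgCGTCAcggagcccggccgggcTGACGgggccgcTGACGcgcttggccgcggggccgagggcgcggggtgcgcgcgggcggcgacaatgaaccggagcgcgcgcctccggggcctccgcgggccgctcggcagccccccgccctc
Nr4a3: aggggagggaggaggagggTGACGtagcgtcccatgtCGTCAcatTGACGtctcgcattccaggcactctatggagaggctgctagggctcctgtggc
Arl4d: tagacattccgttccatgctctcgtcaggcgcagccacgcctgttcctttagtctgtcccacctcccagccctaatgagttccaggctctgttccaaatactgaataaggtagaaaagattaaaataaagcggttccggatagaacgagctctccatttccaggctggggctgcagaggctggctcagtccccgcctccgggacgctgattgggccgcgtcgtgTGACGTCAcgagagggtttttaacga
The matches began 233, 213, 69 and 40 bases before the start in Nr4a1, 200, 144, 123 and 111 bases before it in Nr4a2, 231, 213 and 205 bases before it in Nr4a3, and 26 bases before it in Arl4d. Among tested genes with a promoter in the RefSeq table the core was found in 36.81% of 8822, and among all 32851 promoters in 20.81%. It was found in 21 of 25 genes of the CREB list (84.0%), in 19 of 40 genes called higher (47.5%) and in 11 of 24 called lower (45.83%). The full CRE was rarer, in 3.7% of tested genes in 3 of 40 called higher (7.5%), which were Arl4d, Scg2 and Mcam, and in 1 of 24 called lower (4.17%), which was Lmcd1. Both motifs were searched on both strands, and each full CRE also holds the core. A match is a description of the letters in this window. Genes are often listed as CREB targets because of such sites, so the share of the CREB list is not a test. Of 94 called symbols, 64 had a promoter in the table.

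The other called members of the CREB list limit cAMP signalling or act as transcription factors. Pde4b, a phosphodiesterase that breaks down cAMP, measured 0.45 and 0.42 RPKM with vehicle and 3.00 and 2.89 RPKM with YKL-05-093 (log2 fold change 2.50 ± 0.16, adjusted p = 0.0023). Pde4d, another cAMP phosphodiesterase, was listed under 2 identifiers that may share reads, and both rose: from 1.90 and 1.36 RPKM to 6.21 and 6.38 RPKM under the first (1.90 ± 0.19, adjusted p = 0.016), and from 3.02 and 1.66 RPKM to 8.43 and 8.37 RPKM under the second (1.86 ± 0.28, adjusted p = 0.046). These were the 3 calls among 10 tested phosphodiesterase identifiers, all higher, against 0.393% of all genes tested. The median log2 fold change of the 10 identifiers was 0.50. With no filter on low values the median was 0.119. Pde4a (-0.04), Pde7a (-0.12) and Pde8a (0.32) were not called. Both Pde4d calls were lost without YKL-05-093 library 1.

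Rgs2, which shortens signalling by G-protein alpha subunits, measured 1.81 and 2.66 RPKM with vehicle and 12.4 and 12.3 RPKM with YKL-05-093 (2.43 ± 0.21, adjusted p = 0.0088). Rgs3, another regulator of G-protein signalling, moved the other way, from 1.16 and 1.53 RPKM to 0.47 and 0.39 RPKM (-1.44 ± 0.20, adjusted p = 0.037). The remaining 5 tested members of the RGS list were not called. Fos, an immediate-early AP-1 subunit, rose from 2.60 and 3.26 RPKM to 7.96 and 9.26 RPKM (1.53 ± 0.19, adjusted p = 0.027), and it was the sole call among 10 tested AP-1 genes. Nfil3, a bZIP repressor tied to the circadian clock, rose from 16.4 and 17 RPKM to 36 and 33.1 RPKM (1.04 ± 0.16, adjusted p = 0.046). It was the sole call of 17 tested clock genes. Fos, Nfil3 and Rgs3 lost their calls without YKL-05-093 library 1. CREB list members that missed the call included Il6 (log2 fold change 1.87), Avpi1 (1.43), Crem (0.97), Per1 (0.97) and Ptgs2 (-0.43).

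**Figure D2:**
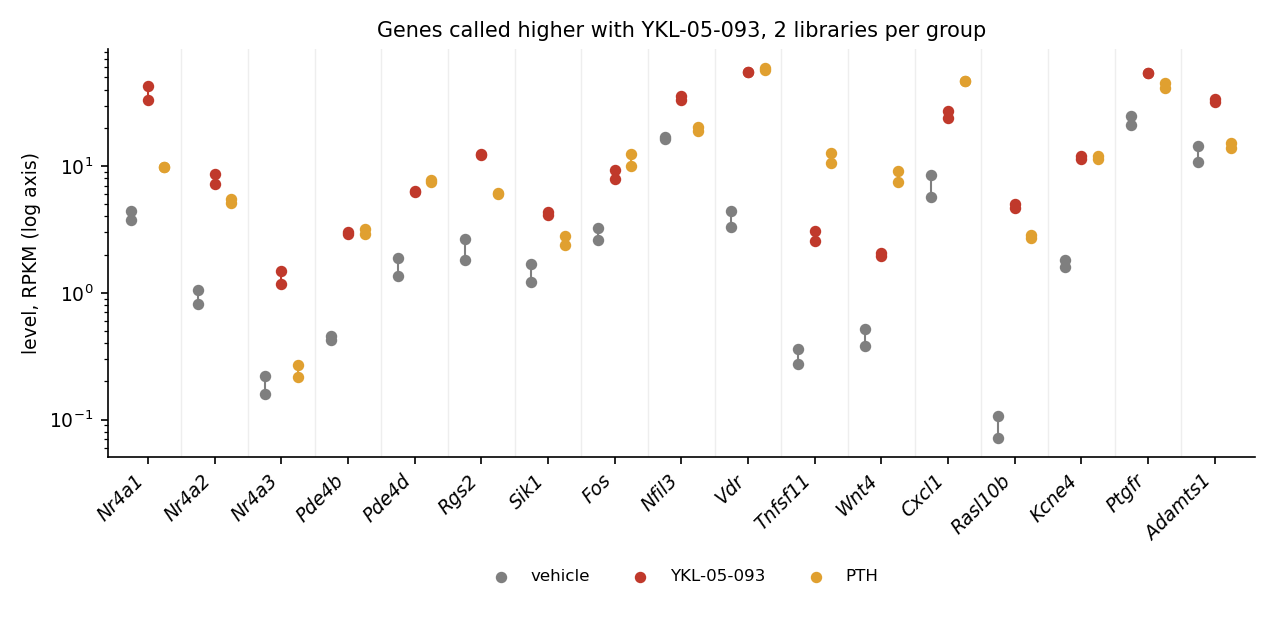
RPKM on a log axis in each library (2 points per treatment, joined by a line) for 17 genes called higher with YKL-05-093 (red) than with vehicle (grey), with PTH (orange) beside them. For every gene shown the YKL-05-093 points lie above both vehicle points, and for Nr4a1 and Nr4a3 they lie well above PTH, while for Tnfsf11 and Wnt4 they lie below it.

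Vdr, the nuclear receptor for the active form of vitamin D, rose more in the main analysis than any other called gene but Rasl10b. The gene lies at chr15:97854425-97910630 on the minus strand of GRCm38 in GENCODE M21, which also gave the other gene positions. It measured 4.41 and 3.31 RPKM with vehicle and 54.7 and 54.9 RPKM with YKL-05-093, a 14.0-fold rise (3.81 ± 0.19, adjusted p = 0.0012). Its partners Rxra (-0.23) and Rxrb (0.26) were not called. The other 6 listed genes of vitamin D metabolism did not pass the filter on low values.

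Factors that bone cells send to osteoclasts moved in opposite directions. Tnfsf11, the gene of RANKL, at chr14:78277445-78308043 on the minus strand, measured 0.36 and 0.27 RPKM with vehicle and 3.09 and 2.57 RPKM with the inhibitor, a 7.07-fold rise (2.82 ± 0.26, adjusted p = 0.0094). Csf1, which encodes macrophage colony-stimulating factor and is needed with RANKL to form osteoclasts, fell from 20.3 and 17.9 RPKM to 6.65 and 7.24 RPKM (-1.44 ± 0.16, adjusted p = 0.020). Both were the only calls among 7 tested members of the list. Neither stayed called without vehicle library 1 or YKL-05-093 library 1, and with length trends taken out the list held 4 calls. Tnfrsf11b, the decoy receptor OPG, was not called (-0.65), nor were the monocyte chemokines Ccl2 (-1.37, adjusted p = 0.11) and Ccl7 (-1.13, adjusted p = 0.26).

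Genes known as transcriptional read-outs of ERK signalling held the strongest falls among called genes. Not all genes grouped with them here fell. Of 10 tested AP-1 genes Fos was called higher (1.53), and the median of that list was 0.20. The paper's in vitro panel lists SRC, EGFR and the MEK kinases among other kinases that the compound inhibited. It also reports genes that still responded to the compound in cells deficient in the main osteocyte SIKs. Whether the falls of the ERK read-outs came from SIK inhibition was not tested. Dusp6, the phosphatase that inactivates ERK and is itself induced by it, lies at chr10:99263231-99267489 on the plus strand and measured 8.86 and 9.25 RPKM with vehicle and 1.04 and 1.23 RPKM with YKL-05-093. Its vehicle level was 7.44 times that with the inhibitor (log2 fold change -2.90 ± 0.17, adjusted p = 0.0023). Of the 8 tested dual-specificity phosphatases it was the sole call, and the other ERK-linked members Dusp4 (-1.29), Dusp5 (-0.96) and Dusp7 (-0.98) were not called, while Dusp1, a CREB target, stood at 0.96. Without vehicle library 2, 4 members were called, and with length trends taken out, 3.

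The Sprouty and SPRED genes encode inhibitors of the RAS-ERK pathway, and the ETV genes encode ETS factors induced by it. All 7 tested members of this list had a negative log2 fold change, with a median of -1.10. Of these, 3 were called lower, against 0.274% of all genes tested. Spry4 measured 1.02 and 1.15 RPKM with vehicle and 0.12 and 0.084 RPKM with YKL-05-093 (-2.56 ± 0.27, adjusted p = 0.018). Spry1, which shares exons on the opposite strand with Gm42922, went from 4.86 and 5.09 RPKM to 1.24 and 1.14 RPKM (-1.98 ± 0.17, adjusted p = 0.0088). Etv5 went from 2.40 and 2.41 RPKM to 0.68 and 0.66 RPKM (-1.71 ± 0.17, adjusted p = 0.014). In each of the 3 genes both vehicle libraries lay above both inhibitor libraries, as in every gene called lower and in 22.1% of all tested genes. Spred1 (-1.10), Spred2 (-0.94), Spry2 (-0.89) and Etv4 (-0.69) were not called, although all had an unadjusted p under 0.05. The number called was 0 without vehicle library 1, 1 without YKL-05-093 library 1 and 4 without vehicle library 2.

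Egr1 and Egr2 are zinc-finger factors that are switched on by ERK through SRF and its ETS partners. They were the 2 calls among 12 tested members of the EGR and SRF-linked list. Over all genes tested 0.274% were called lower. Egr1 measured 6.78 and 6.08 RPKM with vehicle and 0.87 and 1.55 RPKM with YKL-05-093 (-2.36 ± 0.26, adjusted p = 0.020). Egr2 measured 7.10 and 8.65 RPKM with vehicle and 1.02 and 1.49 RPKM with YKL-05-093 (-2.58 ± 0.23, adjusted p = 0.0088). The list as a whole had a median of -0.42, with 11 of 12 members negative, among them Arc (-1.02), Phlda1 (-0.87), Ier2 (-0.78) and Srf itself (-0.54), none of which was called. Neither Egr1 nor Egr2 stayed called without vehicle library 1, and 1 did without YKL-05-093 library 1.

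SRF binds the CArG box. Egr2 is shown as the member of the list that fell most, at chr10:67537316-67537565 on the plus strand of GRCm38.p6. A CArG box was found in 4 of its 5 RefSeq promoter windows. The window printed is the one of these that begins farthest 5′, with its box, 72 bases before that start, in capitals. The other 3 windows, whose starts lie downstream, overlap each other and share a single box, which has different letters.
Egr2: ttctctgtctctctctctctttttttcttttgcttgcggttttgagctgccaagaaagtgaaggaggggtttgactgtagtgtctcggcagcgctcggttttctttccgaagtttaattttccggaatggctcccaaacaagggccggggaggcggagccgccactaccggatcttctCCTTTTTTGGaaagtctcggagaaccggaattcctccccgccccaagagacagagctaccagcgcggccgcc
The promoter of Egr1 is not reported here. Among called genes whose promoters are described, the box was also found in that of Lmcd1, a LIM-domain cofactor called lower (-1.12). It was found in 2 of 24 genes called lower, in 0 of 40 called higher and in 1.58% of tested genes.

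Genes of the proteins that carry the ERK signal held no call. None of 20 tested genes of the RAS, RAF, MEK and ERK core was called by limma, their median log2 fold change was -0.05, and Mapk3 (0.03), Map2k1 (-0.04) and Braf (-0.05) were among the members measured. At an unadjusted p under 0.05, 2 were higher and 0 lower, against 3.9% and 4.76% of all genes tested. Among 21 tested growth factor receptors 1 was called: Kdr, the receptor for VEGF, rose from 0.58 and 0.48 RPKM to 1.72 and 1.43 RPKM (1.42 ± 0.20, adjusted p = 0.038). Kdr is also a marker of endothelial cells. Of the other markers, Cdh5 was at 0 in all 4 libraries and Pecam1 at or below 0.07 RPKM, and Emcn had at most 2 reads. Tek measured 0.48 and 0.21 RPKM with vehicle and 0.38 and 0.47 RPKM with the inhibitor. Vwf measured 0.16 and 0.096 RPKM with vehicle and 0.17 and 0.13 RPKM with the inhibitor. The list's summed level was 1.31 and 0.82 RPKM with vehicle and 2.34 and 2.09 RPKM with the inhibitor. The paper reports that its experiments all used a subclone of Ocy454 grown from a single cell. Whether endothelial cells had a part in the rise of Kdr was not tested. Egfr (-0.82), Epha2 (-0.88) and Fgfr1 (0.06) were not called. Of the ligands, Pdgfa fell from 23.3 and 28.7 RPKM to 9.86 and 10.8 RPKM (-1.32 ± 0.17, adjusted p = 0.032). Its antisense neighbour 6330403L08Rik fell with it (-1.37), and reads of the overlapping exons cannot be told apart if counting ignored strand, which the sources used here do not say. Kdr and Pdgfa lost their calls without YKL-05-093 library 1.

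**Figure D3:**
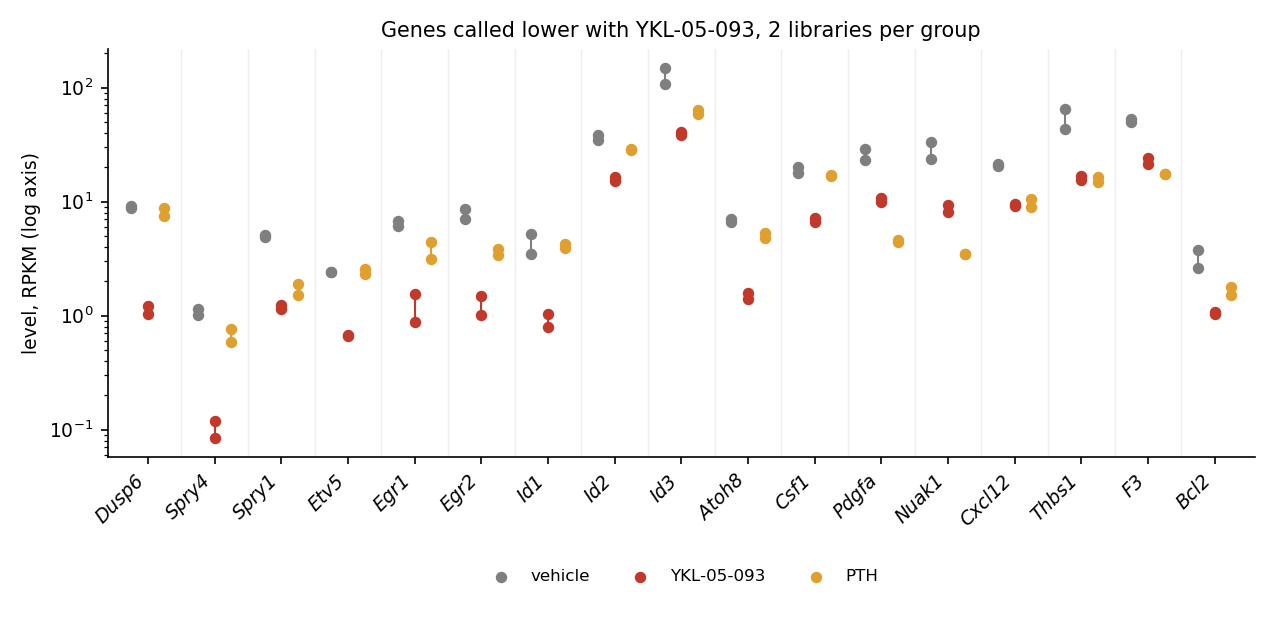
RPKM on a log axis in each library (2 points per treatment, joined by a line) for 17 genes called lower with YKL-05-093 (red) than with vehicle (grey), with PTH (orange) beside them. For Dusp6, Spry4, Etv5, Egr1, Egr2, Id1 and Csf1 the PTH points lie closer to vehicle than the YKL-05-093 points do, whereas for Nuak1 and Pdgfa the PTH points are the lowest.

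The ID proteins are inhibitors of bHLH transcription factors and, with the inhibitory SMADs, are standard targets of BMP signalling. Of 6 tested members, 3 were called lower, against 0.274% of all genes tested, and the median log2 fold change was -1.26. Id1 measured 3.49 and 5.19 RPKM with vehicle and 1.04 and 0.79 RPKM with YKL-05-093 (-2.11 ± 0.27, adjusted p = 0.030). Id3, the most abundant of them, fell from 108 and 150 RPKM to 40.5 and 38.8 RPKM (-1.68 ± 0.20, adjusted p = 0.024). Id2 fell from 34.9 and 38.2 RPKM to 15.3 and 16.4 RPKM (-1.20 ± 0.16, adjusted p = 0.032). Smad7 (-1.33) and Smad6 (-0.56) were not called, and Id4 (0.10) was the sole member above 0. Left without vehicle library 1, YKL-05-093 library 1 or YKL-05-093 library 2, the list held 1, 0 and 1 calls, and without vehicle library 2 it held 4. None of 15 tested BMP ligands, receptors and antagonists was called by limma, with Bmp4 at -0.97 and Bmp2 at -0.96. At an unadjusted p under 0.05, 1 was higher and 2 lower, against 3.9% and 4.76% of all genes tested. Atoh8, a bHLH factor outside the lists, fell from 7.07 and 6.59 RPKM to 1.59 and 1.39 RPKM (-2.12 ± 0.18, adjusted p = 0.0088).

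**Figure D4:**
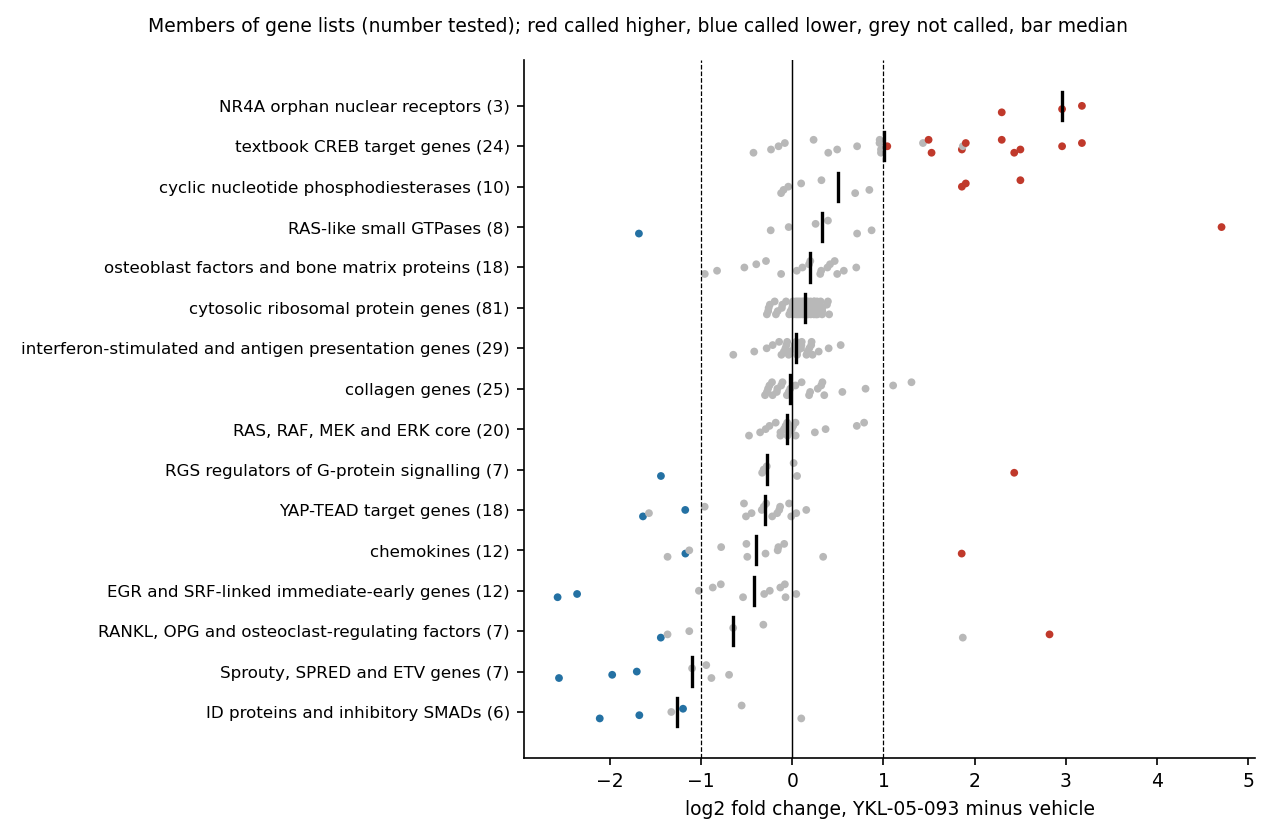
Log2 fold change of each tested member of 16 gene lists, 1 point a member, with the number tested in parentheses and a black bar at the list median. The NR4A list has the highest median (2.96) and the list of ID proteins and inhibitory SMADs the lowest (-1.26), while the collagens and the ERK core are centred near 0.

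In the Wnt pathway 1 ligand was called. Wnt4 rose from 0.38 and 0.52 RPKM to 2.05 and 1.93 RPKM (1.93 ± 0.22, adjusted p = 0.020), and the other 8 tested ligands, among them Wnt7b (1.09) and Wnt5a (-0.50), were not called. None of 8 secreted antagonists and none of 22 receptors and feedback targets was called by limma. At an unadjusted p under 0.05 the antagonists held 3 higher and 1 lower, and the receptors and targets 2 higher and 3 lower. Over all genes tested 3.9% were higher and 4.76% lower at that limit. Axin2, the usual read-out of the pathway, stood at -0.37. Rspo3, which strengthens Wnt signalling and lies outside the lists, fell from 4.66 and 4.56 RPKM to 1.49 and 1.7 RPKM (-1.48 ± 0.18, adjusted p = 0.026). Wnt4 and Rspo3 lost their calls without vehicle library 1 or YKL-05-093 library 1.

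Other secreted signals changed gene by gene. Inhbb, a subunit of activin, rose from 4.00 and 4.18 RPKM to 8.11 and 8.98 RPKM (1.04 ± 0.16, adjusted p = 0.046) and was the sole call of 18 tested TGF-beta and activin genes. Cxcl1, a neutrophil chemokine, rose from 5.72 and 8.47 RPKM to 27 and 24.1 RPKM (1.86 ± 0.22, adjusted p = 0.024). Cxcl12, the chemokine that retains blood stem cells in marrow, fell from 21.5 and 20.7 RPKM to 9.07 and 9.52 RPKM (-1.17 ± 0.16, adjusted p = 0.032). These were the calls among 12 tested chemokines, whose median was -0.39, and -0.665 or -0.20 without vehicle library 1 or 2 and -0.25 without YKL-05-093 library 2. Ptgfr, the receptor for prostaglandin F2 alpha, rose from 24.9 and 21 RPKM to 54.3 and 54.6 RPKM (1.25 ± 0.17, adjusted p = 0.034). Adamts1, a secreted protease of proteoglycans, rose from 14.3 and 10.7 RPKM to 32.2 and 33.7 RPKM (1.40 ± 0.19, adjusted p = 0.034). All 5 calls were lost without YKL-05-093 library 1, and those of Inhbb and Cxcl1 also without vehicle library 1.

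Targets of YAP and TEAD leaned downward, with 16 of 18 tested members negative and a median of -0.30. Of the 18, 2 were called lower, against 0.274% of all genes tested. The median was -0.053 without vehicle library 1, -0.46 without vehicle library 2 and -0.19 without YKL-05-093 library 1. F3, tissue factor, fell from 52.6 and 50.3 RPKM to 21.4 and 24.1 RPKM (-1.17 ± 0.16, adjusted p = 0.034). Fjx1 fell from 2.71 and 3.57 RPKM to 0.85 and 1.01 RPKM (-1.64 ± 0.23, adjusted p = 0.034). The matricellular genes Ctgf (-1.57) and Cyr61 (-0.96) were not called (adjusted p = 0.069 and 0.090). Neither F3 nor Fjx1 was called without vehicle library 1 or without YKL-05-093 library 1. Thbs1, a matricellular protein outside the lists that shares exons with Gm29233 on the opposite strand, fell from 64.8 and 43 RPKM to 15.3 and 17 RPKM (-1.7 ± 0.23, adjusted p = 0.032).

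In the main analysis the largest rise of a called gene was that of a small GTPase of the RAS-like group. Rasl10b, at chr11:83409137-83421039 on the plus strand, had 5 and 12 reads with vehicle (0.071 and 0.11 RPKM). With YKL-05-093 it had 405 and 388 reads (4.99 and 4.67 RPKM). Its log2 fold change was 4.71 ± 0.23 on the log2(RPKM + 0.1) scale (adjusted p = 0.0012). Over the analyses run it ranged from 2.42 to 5.65, and that of Vdr from 3.53 to 4.01, so the first rank depends on the setting. Rasl11a fell from 14.5 and 18.4 RPKM to 4.96 and 5.07 RPKM (-1.68 ± 0.19, adjusted p = 0.020). The other 6 tested members were not called. Bcl2, the inhibitor of apoptosis, fell from 3.77 and 2.60 RPKM to 1.03 and 1.09 RPKM (-1.48 ± 0.21, adjusted p = 0.039), and the other 12 tested members of its family, such as Mcl1 (-0.31) and Bcl2l11 (0.57), were not called. Rasl11a and Bcl2 lost their calls without vehicle library 1 or YKL-05-093 library 1.

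Of the 95 called genes, 57 belonged to no list. Potassium channel genes stood among those that rose most. Kcnk10, a channel of the TREK type, rose from 0.32 and 0.23 RPKM to 2.40 and 2.48 RPKM (2.78 ± 0.25, adjusted p = 0.0094). Kcne4, a channel beta subunit, rose from 1.6 and 1.82 RPKM to 11.3 and 12 RPKM (2.70 ± 0.17, adjusted p = 0.0023). Kcnj2, an inward rectifier, rose from 1.18 and 0.72 RPKM to 3.56 and 4.52 RPKM (2.01 ± 0.25, adjusted p = 0.028). These were grouped after their values were seen, and Kcnk10 and Kcnj2 lost their calls without vehicle library 1 or YKL-05-093 library 1.

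The other genes outside the lists that rose most had varied roles. Mcam, an adhesion molecule of the immunoglobulin family, rose from 1.91 and 1.57 RPKM to 8.26 and 7.82 RPKM (2.15 ± 0.17, adjusted p = 0.0080). Il1rl1, the receptor for interleukin-33, rose from 3.84 and 4.72 RPKM to 16.2 and 16.8 RPKM (1.93 ± 0.17, adjusted p = 0.0088). Acsl3, an enzyme that activates fatty acids and shares exons with Utp14b, rose from 23.6 and 19.1 RPKM to 78.2 and 83.0 RPKM (1.92 ± 0.18, adjusted p = 0.010). Glis1, a Krüppel-like zinc-finger factor, rose from 0.45 and 0.49 RPKM to 2.50 and 2.72 RPKM (2.25 ± 0.20, adjusted p = 0.0088). Shc2, a phosphotyrosine adaptor, rose from 1.85 and 1.58 RPKM to 7.12 and 7.29 RPKM (2.01 ± 0.16, adjusted p = 0.0080). Gng4, a G-protein gamma subunit, rose from 0.60 and 0.74 RPKM to 2.37 and 2.54 RPKM (1.73 ± 0.21, adjusted p = 0.024), and C2cd4c from 0.21 and 0.28 RPKM to 0.81 and 1.17 RPKM (1.64 ± 0.25, adjusted p = 0.0497). Further genes called higher included Crispld2 (2.25), Tsc22d3, which encodes the glucocorticoid-induced leucine zipper (1.5), the growth factor Hgf (1.40), the sphingosine 1-phosphate receptor S1pr1 (1.35) and Plau, the urokinase (1.26). All of these calls were lost without YKL-05-093 library 1.

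Outside the lists, the genes that fell most besides Atoh8, Thbs1 and Rspo3 had varied roles as well. Hmga2, an architectural chromatin protein of growing cells, fell from 2.04 and 1.80 RPKM to 0.36 and 0.56 RPKM (-1.86 ± 0.23, adjusted p = 0.026). Cd200, an immune-inhibitory surface ligand, fell from 5.02 and 5.42 RPKM to 1.37 and 1.98 RPKM (-1.61 ± 0.21, adjusted p = 0.031). Enc1, an actin-binding protein, fell from 11.5 and 8.22 RPKM to 3.28 and 3.02 RPKM (-1.6 ± 0.20, adjusted p = 0.028). Gpr176, an orphan receptor, fell from 7.35 and 5.73 RPKM to 2.23 and 2.10 RPKM (-1.54 ± 0.18, adjusted p = 0.024). Prkg2, the cGMP-dependent kinase II, fell from 8.42 and 6.91 RPKM to 2.64 and 2.92 RPKM (-1.43 ± 0.17, adjusted p = 0.026). Pcdh10, a protocadherin, fell from 1.83 and 1.59 RPKM to 0.63 and 0.51 RPKM (-1.44 ± 0.18, adjusted p = 0.028). Gm5763, annotated as a processed pseudogene in GENCODE M21, fell from 2.15 and 2.23 RPKM to 0.66 and 0.74 RPKM (-1.51 ± 0.20, adjusted p = 0.032). Further genes called lower included Snai2, a repressor of epithelial genes (-1.19), Lfng, a modifier of Notch (-1.15), Socs5 (-1.42) and Hoxc13 (-1.31). These calls too were lost without YKL-05-093 library 1. Of the 95 called genes, 17 overlap an exon of another gene on the opposite strand and 6 on the same strand.

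The genes that make bone matrix were not called at 4 h. None of 18 tested osteoblast factors and matrix proteins, 25 collagens, 11 osteocyte genes and 8 mineralization genes was called by limma, and their median log2 fold changes were 0.19, -0.02, -0.09 and -0.31. At an unadjusted p under 0.05 these lists held 2, 4, 3 and 0 higher members and 3, 0, 2 and 2 lower. Over all genes tested 3.9% were higher and 4.76% lower at that limit. Runx2 and Sp7, the master factors of osteoblasts, stood at -0.40 and -0.83, Col1a1 at 0.18 and Phex, which regulates phosphate, at 1.53. In all, 27 of 52 lists other than cell type markers held no called gene. Among them were the 81 tested cytosolic ribosomal protein genes (median 0.14), 76 respiratory chain genes (0.07), 33 cell cycle genes (-0.09), 24 genes of cholesterol and fatty acid synthesis (-0.14), 26 of glycolysis (-0.06), 24 of the unfolded protein response (0.08) and 29 interferon-stimulated genes (0.04). Several of these medians depended on the vehicle library: without vehicle library 1 and without vehicle library 2 they were -0.11 and 0.365 for the ribosomal proteins, -0.18 and 0.32 for the respiratory chain and 0.33 and -0.23 for the collagens. By the rule used, a change of under 2-fold is not a call. The lists together name 1106 gene identifiers, of which 858 were tested, and 248 were too low.

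Whether the inhibitor response differed from that to PTH was tested directly between the 2 YKL-05-093 and the 2 PTH libraries, without the vehicle libraries. Over all genes 732 were higher and 695 lower with YKL-05-093 than with PTH at a limma adjusted p under 0.05 (5.14% and 4.88%), and 172 of these differed by more than 2-fold (1.21%). Of the 95 genes called against vehicle, 64 differed from PTH, 30 of them higher and 34 lower with the inhibitor, and for 31 no difference passed the test. The same YKL-05-093 libraries enter both tests. With either PTH library left out no gene was called at more than 2-fold, although 2132 and 2021 had an unadjusted p under 0.05.

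The inhibitor stood above PTH at NR4A genes and below it at RANKL and Wnt4. Nr4a1 measured 9.85 and 9.75 RPKM with PTH, against 33.2 and 42.6 RPKM with YKL-05-093 (log2 difference 1.93, adjusted p = 2.3e-09), and Nr4a3 measured 0.22 and 0.27 RPKM with PTH (2.06, adjusted p = 2.0e-06). Rgs2 (1.00), Nfil3 (0.82), Sik1 (0.68), Nr4a2 (0.57) and Adamts1 (1.17) were higher with the inhibitor too. In contrast Tnfsf11 measured 12.6 and 10.6 RPKM with PTH (-2.00, adjusted p = 2.6e-08) and Wnt4 9.15 and 7.5 RPKM (-2.00, adjusted p = 6.9e-09). Cxcl1 (-0.87) was lower than with PTH as well. No difference passed the test for Vdr, at 59.6 and 56.9 RPKM with PTH (-0.09, 95% confidence interval -0.23 to 0.06), for Pde4b (-0.06, -0.23 to 0.12) or for Kcne4 (-0.00, -0.18 to 0.17).

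Most genes of the Sprouty and ID lists were also lower with the inhibitor than with PTH. The counts that follow use a limma adjusted p under 0.05 and no limit on fold. Of the 7 Sprouty, SPRED and ETV genes 6 were lower with YKL-05-093 than with PTH. Of the 12 EGR and SRF-linked genes 6 were lower and 1 was higher, and of the 6 ID and inhibitory SMAD genes 5 were lower. Over all genes tested 4.88% were lower and 5.14% higher. Dusp6 measured 7.46 and 8.84 RPKM with PTH and 1.04 and 1.23 RPKM with the inhibitor (-2.74, adjusted p = 2.5e-09), Etv5 2.54 and 2.31 RPKM with PTH (-1.72, adjusted p = 2.6e-07), and Id1 3.89 and 4.22 RPKM with PTH (-2.04, adjusted p = 3.9e-06). Csf1 measured 17.3 and 16.9 RPKM with PTH (-1.29, adjusted p = 8.6e-09). For Spry1, at 1.89 and 1.52 RPKM with PTH, no difference passed the test (-0.48, 95% confidence interval -0.85 to -0.10, adjusted p = 0.11). Nuak1 and Pdgfa fell with the inhibitor but lay lower still with PTH, at 3.45 and 3.50 RPKM and at 4.44 and 4.64 RPKM (differences 1.30 and 1.17).

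**Figure D5:**
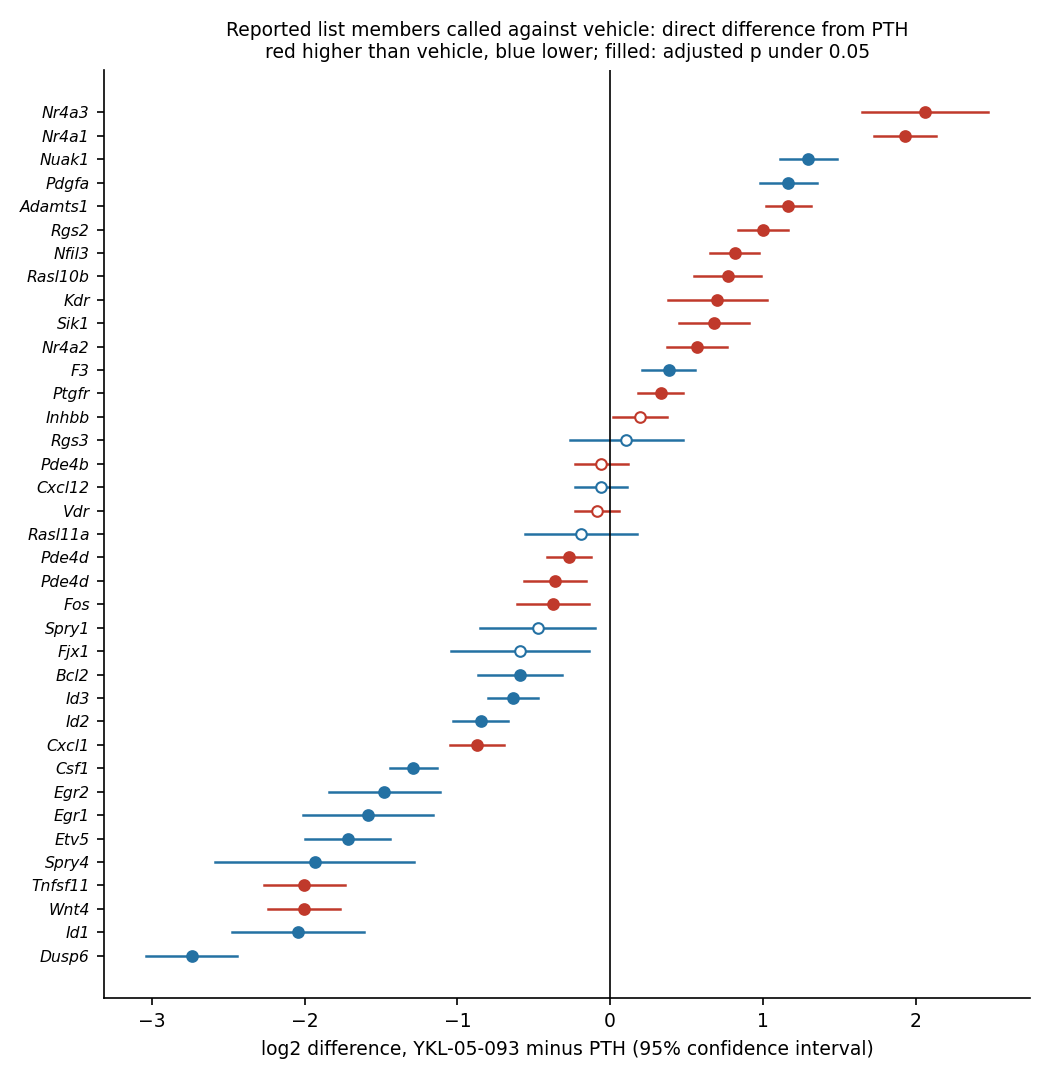
Log2 difference between YKL-05-093 and PTH, with its 95% confidence interval, for the list members reported here as called against vehicle (red higher than vehicle, blue lower, filled where the adjusted p is under 0.05). Nr4a3 and Nr4a1 lie farthest to the right, at 2.06 and 1.93, and Dusp6 farthest to the left, at -2.74.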

How the data were processed

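RNA depleted of ribosomal RNA was sequenced as directional paired-end libraries. The authors processed the reads with CASAVA 1.7, aligned them with STAR to mm10, counted them per Ensembl gene with HTSeq and deposited RPKM values for 39179 genes. Neither the strand setting of the counting nor the gene length behind the RPKM is given in the sources used here. No per-library column was left without a sample (0 such columns).

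Whole read numbers were recovered from the RPKM steps for all 26214 genes above 0 (tolerance 0.001 reads). They summed to at least 99.66% of each library total of 17505798 to 27983585 reads, and were used for the variance trend and for voom. Genes with at least 0.5 RPKM in 2 of the 6 libraries were kept (14264, of which 14255 were tested). Values were analysed as log2(RPKM + 0.1) with limma 3.58.1 in R 4.3.3, on the 4 libraries of a comparison, with the prior variance following the mean log2 recovered reads and Benjamini-Hochberg adjustment over all genes tested. Calls needed more than 2-fold change and an adjusted p under 0.05. Fold changes on this scale understate those of low genes, and the precision is set by 2 libraries per group.

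Genes described with the value of every library were the called members of each list, at most 4 per list by size of change, the 10 called genes outside the lists that changed most in each direction and averaged 50 reads or more over the 4 libraries, and Sost, Tnfsf11, Sik1, Sik2, Sik3, Hdac4, Hdac5, Mef2c and Crtc2. 1 called list member is not reported here. Other genes given by fold change alone were chosen after their values were seen. The genes and lists were chosen with earlier results of these data known, and the lists are not independent evidence.

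The replicate numbers were checked for pairing by correlating the differences between the replicates of 2 groups, which gave -0.05 for vehicle with YKL-05-093, so that the numbers were not taken to pair libraries. Alternatives covered the pseudocount, the filter, the variance trend, all 6 libraries in 1 fit, scaling by median ratios, voom on the recovered reads, a replicate block and leaving out each library. A removal of the length trend was added after the data were seen. The scripts were tested on simulated data. The simulated libraries had no length trend and the same spread in every group, and the fold limit was lower than the one used here. That test does not cover the difference between the vehicle libraries. Promoters came from a RefSeq table on GRCm38.p6, and overlaps from GENCODE M21. Figures were drawn with matplotlib 3.10.9.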

Additional observations from a re-analysis of the deposited data

How the results depend on the processing

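All 95 called genes kept their direction under every alternative run. The count of 95 (56 higher, 39 lower) became 55 (34 and 21) with a pseudocount of 1 RPKM, 57 (35 and 22) with a filter of 0.1 RPKM, 29 (21 and 8) without a variance trend, 6 (5 and 1) with a trend on mean log2 RPKM, 173 (95 and 78) in 1 fit of all 6 libraries, and 179 (110 and 69) with the length trend removed, the alternative chosen after seeing the data. With no filter on low values limma called 0 genes (0 higher and 0 lower), while 1735 had an unadjusted p under 0.05 and voom with the main filter called 96. The causes of these shifts were not tested. Leaving out 1 library gave 11 to 320 calls, 7 to 149 higher and 4 to 171 lower, with the fewest without YKL-05-093 library 1 and the most without vehicle library 2. With the replicate block 215 genes were called (123 higher and 92 lower), the 95 among them, but the numbers are not known to pair the libraries.

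For YKL-05-093 against PTH, 172 calls (67 higher, 105 lower) became 98 (26 higher) with a pseudocount of 1 RPKM, 51 (17 and 34) without a variance trend, 102 (40 and 62) in 1 fit of all 6 libraries and 1427 (732 and 695) with no limit on fold. The replicate block gave 196. Leaving out 1 library gave 0 to 155 calls, and the 0 were without either PTH library, where 2132 and 2021 genes had an unadjusted p under 0.05.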

Other observations

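Some list members lay below the filter on low values and were read after their values were seen, with a filter of 0.1 RPKM in place of 0.5. Hlf, a bZIP factor of the circadian output, had 5 and 4 reads with vehicle, 71 and 67 reads with YKL-05-093 and 14 and 18 reads with PTH (log2 fold change against vehicle 1.98 ± 0.28, limma adjusted p = 0.057). Egr3, the third EGR factor, had 25 and 18 reads with vehicle, 3 and 5 reads with YKL-05-093 and 5 and 8 reads with PTH (-1.74 ± 0.45, limma adjusted p = 0.30). Neither was called.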
